A study of Mus musculus with 6 samples.

Results

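The genes described here encode the matrix metalloproteinases (Mmp), their tissue inhibitors (Timp), the Adamts proteases and the protease-like Adamtsl proteins. They were chosen by symbol alone, as every gene named Mmp, Timp, Adamts or Adamtsl followed by a number that had a row of its own on the array, and the brightest row was used for a gene with several. This gave 49 genes of the 19938 with a single symbol, namely 22 Mmp, 4 Timp, 18 Adamts and 5 Adamtsl genes. Expression had been measured in whole colon, with a single Affymetrix Mouse Gene 1.0 ST array for each mouse. The mutants (n = 3) were VilCre;Ihhflox/flox, so that Ihh, which encodes the signal Indian hedgehog, is removed by Cre driven from the promoter of villin, a gene of the gut epithelium that is silent in the muscle, vessels or connective tissue of the gut wall. The controls (n = 3) are called wild type in the sample labels, which do not say whether they carried floxed alleles or Cre. Mutant and control of each number were littermates (litters 1 to 3). The design text dates the harvest to postnatal day 12, and the growth protocol to days 9 to 12. All values are on the log2 scale of the deposited expression values, every change is mutant minus control, and an error after ± is the standard error (SE) of the limma fit unless marked SD.

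Matrix metalloproteinases are zinc-dependent enzymes, most of them secreted as inactive precursors, that cut collagens, basement membrane and other proteins outside the cell. Timps bind the active enzymes tightly and block them, and Timp3 also blocks several Adam and Adamts proteases. Adamts enzymes are secreted proteases with thrombospondin repeats that anchor them in the matrix, where many of them cut large proteoglycans such as versican or trim procollagens, while Adamtsl proteins share the repeats and lack the catalytic part. In the gut these genes are read mostly in the stroma and in immune cells, with exceptions such as Mmp7, which epithelial cells secrete.

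Of the 49 genes, 12 passed the limma test (adjusted p under 0.05 over all genes), which is 24.5% of them beside 3.77% of all genes tested. These calls depend on the rows tested. When all 35557 rows of the table, unnamed ones included, were fitted and adjusted together, 0 of the 49 passed. The limma adjusted p values of the 12 genes then ran from 0.0945 (Mmp3) to 0.253 (Adamts15), and 24 of the 49 had an unadjusted p under 0.05. In the main fit 27 of the 49 and 3008 of all 19938 genes had such a p. Higher in mutants were the stromelysin genes Mmp3 and Mmp10, the matrilysin gene Mmp7, the collagenase gene Mmp8, the inhibitor gene Timp1 and Adamtsl3. Lower were the gelatinase gene Mmp2, the inhibitor gene Timp3, and Adamts9, Adamts15, Adamts18 and Adamts19. The 6 rises were compared with a background of 1.66% of all genes called higher, and the 6 falls with 2.11% called lower. The family medians were 0.11 for Mmp, -0.36 for Timp, -0.29 for Adamts and 0.12 for Adamtsl genes. In litters 1 to 3 they were 0.001, 0.24 and 0.06 for Mmp and 0.007, 0.07 and 0.11 for Adamtsl genes. For Timp genes they were -0.31, -0.30 and -0.29, and for Adamts genes -0.18, -0.31 and -0.29. The median of all 49 was -0.05, beside 0.01 for all genes tested, and the median size of the change regardless of sign was 0.27 beside 0.08. All 3 mutant arrays lay on one side of all 3 control arrays in 28 of the 49 genes, beside 19.8% of all genes.

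**Figure D1:**
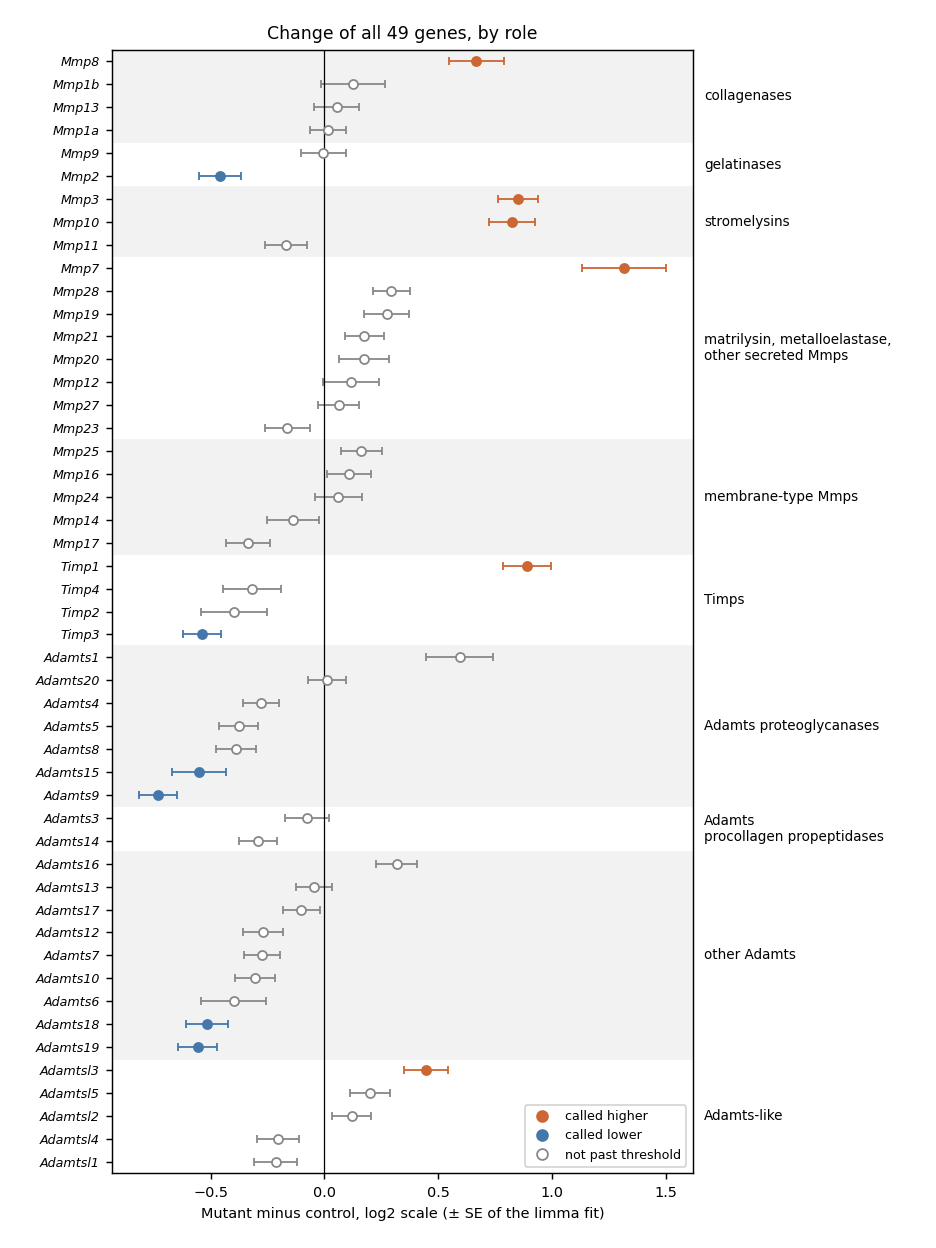
Change of each of the 49 genes (x axis, mutant minus control on the log2 scale, points with the SE of the limma fit, 3 litters), grouped by role. Filled points mark the 6 genes called higher and the 6 called lower. The rises lie among the secreted Mmp genes, Timp1 and Adamtsl3, from 0.44 to 1.32, and the falls from -0.73 to -0.46 include 4 Adamts genes.

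All 4 Mmp genes that rose are neighbours. In the RefSeq annotation of assembly GRCm38.p6, used for gene order, Mmp13, Mmp12, Mmp1b, Mmp3, Mmp1a, Mmp10, Mmp8, Mmp27, Mmp20 and Mmp7 follow each other on chromosome 9 with no other protein-coding gene between them. RefSeq promoter windows, from 250 bases before to 50 bases after the start, were matched by symbol for 34 of the 49 genes. They were searched for the AP-1 element TGANTCA on both strands, which binds Fos and Jun dimers and is a known control element of several Mmp genes, and for the TATA box core TATAAA on the gene's strand. The AP-1 letters were found in 8 of the 34 genes, all 8 in the chromosome 9 run, beside 7.81% of all 32851 windows. All 8 also held TATAAA, a pairing found in 0.995% of all windows. The 8 are neighbours of the same gene family, so their matches are not separate observations. The place of TATAAA varied. It began 29, 26 and 28 bases before the start in Mmp10, Mmp7 and Mmp1a, with a further match in Mmp7. In Mmp3, Mmp13, Mmp1b and Mmp20 it began 7, 16, 49 and 58 bases before, and in Mmp12 after the start. Whether these matches act as TATA boxes was not tested. The 110 bases before the start are shown for the genes of this run that rose and, for comparison, for Mmp1a and Mmp13, which did not pass. Each sequence is from the plus strand of GRCm38.p6 and reads 5′ to 3′, and capitals mark TGANTCA and TATAAA.
Mmp3, chr9:7445712-7445821: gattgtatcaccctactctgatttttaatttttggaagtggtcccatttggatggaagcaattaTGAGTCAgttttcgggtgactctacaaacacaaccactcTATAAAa
Mmp10, chr9:7502232-7502341: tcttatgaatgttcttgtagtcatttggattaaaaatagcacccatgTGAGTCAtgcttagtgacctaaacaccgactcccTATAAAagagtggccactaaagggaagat
Mmp7, chr9:7691980-7692089: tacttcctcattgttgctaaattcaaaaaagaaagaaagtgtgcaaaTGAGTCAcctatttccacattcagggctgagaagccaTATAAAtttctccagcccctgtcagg
Mmp8, chr9:7558319-7558428: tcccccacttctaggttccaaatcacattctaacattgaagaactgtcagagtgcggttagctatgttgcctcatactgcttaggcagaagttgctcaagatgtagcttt
Mmp1a, chr9:7464031-7464140: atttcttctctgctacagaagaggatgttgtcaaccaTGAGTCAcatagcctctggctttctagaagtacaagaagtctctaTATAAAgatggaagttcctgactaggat
Mmp13, chr9:7272404-7272513: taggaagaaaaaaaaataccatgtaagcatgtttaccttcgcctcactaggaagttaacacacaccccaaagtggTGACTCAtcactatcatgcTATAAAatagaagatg
Of the genes of the run that rose, Mmp3, Mmp10 and Mmp7 hold the letters and Mmp8 does not. Mmp1a, Mmp1b, Mmp12, Mmp13 and Mmp20 hold them and did not pass. All of these but Mmp13 lie among the dimmest 30% of all genes, as do Mmp3 and Mmp8, and a fold change is less certain there. A link between the letters and the changes was not tested. A match is only a string of letters, and binding was not measured. The binding letters of Gli factors, TGGGTGGTC on both strands, were found in 0 of the 34 genes and in 0.253% of all windows. Of 16 measured AP-1 and Ets factor genes 0 were higher and 1 was lower (Ets1, -0.41 ± 0.08), with changes from -0.41 to 0.51.

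Stromelysins are broad proteases that also activate other Mmp precursors. Mmp3, stromelysin 1, stood at 5.29, 4.89 and 5.23 in controls 1 to 3 and at 5.98, 5.82 and 6.16 in mutants 1 to 3. The groups did not overlap, with a gap of 0.535 between the highest control and the lowest mutant. Mmp3 was 1.81-fold higher (0.85 ± 0.09, limma adjusted p = 0.00336). Mmp10, stromelysin 2, read 7.01, 7.13 and 6.98 in controls and 7.91, 7.71 and 7.98 in mutants. All 3 mutants were again above all controls, and the rise was 1.77-fold (0.82 ± 0.10, limma adjusted p = 0.00638). Mmp11, stromelysin 3, which is encoded on another chromosome, did not share this rise and stood at -0.17 ± 0.09 (adjusted p = 0.472).

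Mmp7, matrilysin, is a small secreted Mmp of epithelial cells that in mouse Paneth cells also activates antimicrobial defensins. It had the largest change of the 49 genes and the only one of 1 or more on the log2 scale (beside 0.567% of all genes), from 6.99, 7.13 and 7.08 in controls to 7.63, 8.79 and 8.72 in mutants. The mutant of litter 1 lay more than 1 unit below the mutants of litters 2 and 3 and still above every control. The difference was 0.65, 1.66 and 1.64 in litters 1 to 3, a mean 2.49-fold rise (1.32 ± 0.19, limma adjusted p = 0.0101). Of 13 listed Paneth cell genes 5 were measured, and 0 of these 5 passed, with medians of 0.08, 0.12 and 0.33 in litters 1 to 3. Ang4, Itln1, Defa24, Pla2g2a and Lyz1 stood at 0.63, 0.63, 0.18, 0.16 and -0.05. The summed level of these 5 ranged from 8.72 to 9.12 in controls and from 9.02 to 9.36 in mutants. Whether Paneth cells were present in these colons was not tested, nor was any part of them in the rise of Mmp7.

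Mmp8, the collagenase that neutrophils store in granules, was 4.37, 4.16 and 4.44 in controls and 4.68, 4.96 and 5.34 in mutants. It rose 1.59-fold (0.67 ± 0.12, limma adjusted p = 0.0262), with differences of 0.31, 0.80 and 0.90 in litters 1 to 3. The call was lost without the litter block (adjusted p = 0.0529) and without litter 3 (0.0651). Neutrophil markers moved with it: of 13 measured, 8 rose and 0 fell, and their summed level was 9.66 to 9.99 in controls and 10.20 to 10.73 in mutants. The chemokine receptor gene Cxcr2 and the lipocalin gene Lcn2, which gut epithelium can also express, had the lowest p (1.60 ± 0.10 and 1.22 ± 0.13). Of the granule protein genes in the list, Ltf rose like Lcn2 (0.49), while Ngp, Elane, Camp and Mpo stood at 0.41, 0.05, 0.02 and 0.01 and did not pass. The part of neutrophil number in the rise of Mmp8 was not tested, and in whole tissue more cells of a type and more RNA per cell cannot be told apart. Mmp9, gelatinase B, which neutrophils also store, stood at -0.01 ± 0.10 with overlapping groups. Mmp3 and Mmp8 lie among the dimmest 30% of all genes, where a fold change is less certain. So do 9 of the 13 neutrophil markers, among them Cxcr2, Ltf, Ngp, Elane, Camp and Mpo.

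The other 6 genes of the chromosome 9 run did not pass. Mmp1a and Mmp1b are mouse collagenases, Mmp13 is collagenase 3, Mmp12 is the elastase of macrophages, and Mmp20 is the protease of enamel. Together with Mmp27 they had changes from 0.02 to 0.17, with overlapping groups in all 6, and 5 of the 6 lie among the dimmest 30%. Mmp12 was higher only in the mutant of litter 1 (6.45, against 5.83 to 5.97 in controls and 5.78 and 5.85 in the other mutants). Of 14 macrophage and monocyte markers 3 rose and 0 fell, with a median of -0.03. The 3 measured genes on each side of the run (Ddi1, Dync2h1, Dcun1d5, Tmem123, Birc2 and Birc3) also did not pass, with changes from -0.15 to 0.17.

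**Figure D2:**
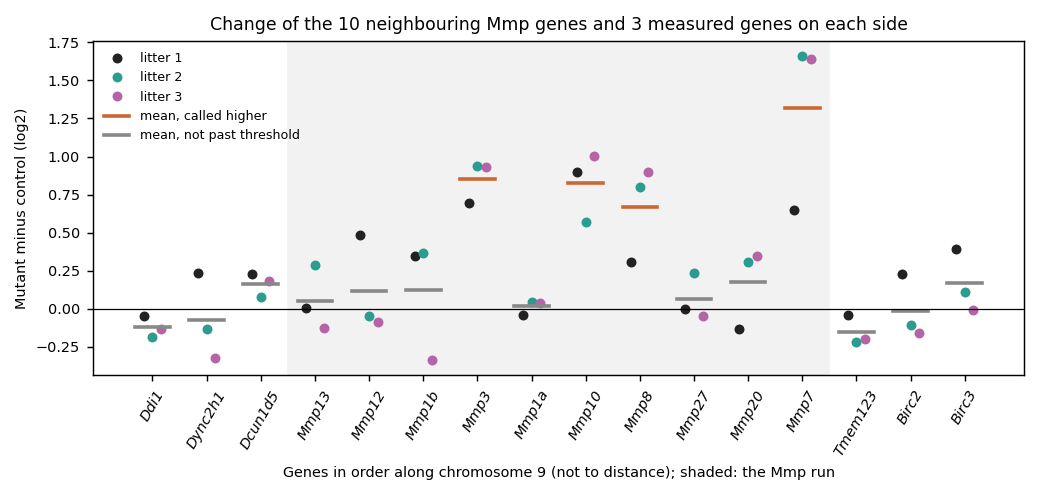
Mutant minus control (y axis, log2 scale) of the 10 neighbouring Mmp genes (shaded) and 3 measured genes on each side, in chromosome order on the x axis. Points are the 3 litters and bars their mean, coloured where the gene was called higher. Mmp3, Mmp10, Mmp8 and Mmp7 were above 0 in each litter. The other 6 Mmp genes of the run had litter differences from -0.34 to 0.49 and means from 0.02 to 0.17.

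Among the gelatinases, which cut denatured and basement membrane collagen, Mmp2 fell. It read 10.73, 11.10 and 10.92 in controls and 10.20, 10.52 and 10.66 in mutants. The groups were separated by only 0.072, and the difference was smallest in litter 3 (-0.53, -0.58 and -0.26). Mmp2 was 1.37-fold lower (-0.46 ± 0.09, limma adjusted p = 0.0393), and the call was lost without the litter block (adjusted p = 0.119), with litter as a random block (0.0895), without litter 1 (0.0962), without litter 2 (0.115) and with median centring (0.0505). Mmp14, the membrane-bound protease that activates Mmp2, was 10.65, 10.61 and 10.66 in controls and 10.18, 10.59 and 10.73 in mutants. It stood at -0.14 ± 0.12 (adjusted p = 0.691), and the lower mean came from litter 1, where the difference was -0.47 beside -0.02 and 0.08 in litters 2 and 3. Of the 5 membrane-type Mmp genes measured (Mmp14, Mmp16, Mmp17, Mmp24 and Mmp25) 0 passed, with changes from -0.34 for Mmp17 to 0.16 for Mmp25. At an unadjusted p under 0.05 in the limma fit there was 1, Mmp17, beside 3008 of all 19938 genes.

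The remaining Mmp genes did not pass. Mmp28, epilysin, an Mmp of epithelia, had the lowest p of the 17 Mmp genes that did not pass and read 7.96, 8.15 and 7.99 in controls and 8.31, 8.39 and 8.27 in mutants. The groups did not overlap, and the difference was 0.29 ± 0.08 (adjusted p = 0.103). Mmp19 stood at 0.27 ± 0.10, with the largest difference in litter 3 (0.47), and Mmp21 at 0.18 ± 0.09. All 3 mutants were above all controls for both, as for 10% of all genes. Mmp23 was at -0.16 ± 0.10, with overlapping groups.

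The Timp genes moved in opposite directions. Timp1, the inhibitor that inflammatory and growth signals induce, was 6.99, 6.91 and 6.95 in controls and 7.61, 7.96 and 7.96 in mutants. The gap between the groups, 0.621, was the widest of the 28 genes without overlap, and the rise was 1.85-fold (0.89 ± 0.10, limma adjusted p = 0.00506). Timp3, the inhibitor that stays bound to the matrix, was 9.81, 9.83 and 9.86 in controls and 9.15, 9.38 and 9.37 in mutants. It fell 1.45-fold (-0.54 ± 0.09, limma adjusted p = 0.0160), with differences of -0.67, -0.46 and -0.49 in litters 1 to 3.

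Timp2, which helps Mmp14 to activate Mmp2, was 9.68, 9.73 and 9.64 in controls and 8.81, 9.50 and 9.54 in mutants. All mutants were below all controls, but the difference was -0.87 in litter 1 and -0.23 and -0.10 in litters 2 and 3, and it did not pass (-0.40 ± 0.14, adjusted p = 0.229). Timp4 read 6.40, 6.32 and 6.82 in controls and 6.45, 5.95 and 6.18 in mutants, with overlapping groups (-0.32 ± 0.13, adjusted p = 0.281). In litter 1 Timp2 had the largest difference and Timp4 was 0.04 higher in the mutant, so the pair did not move together across litters.

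**Figure D3:**
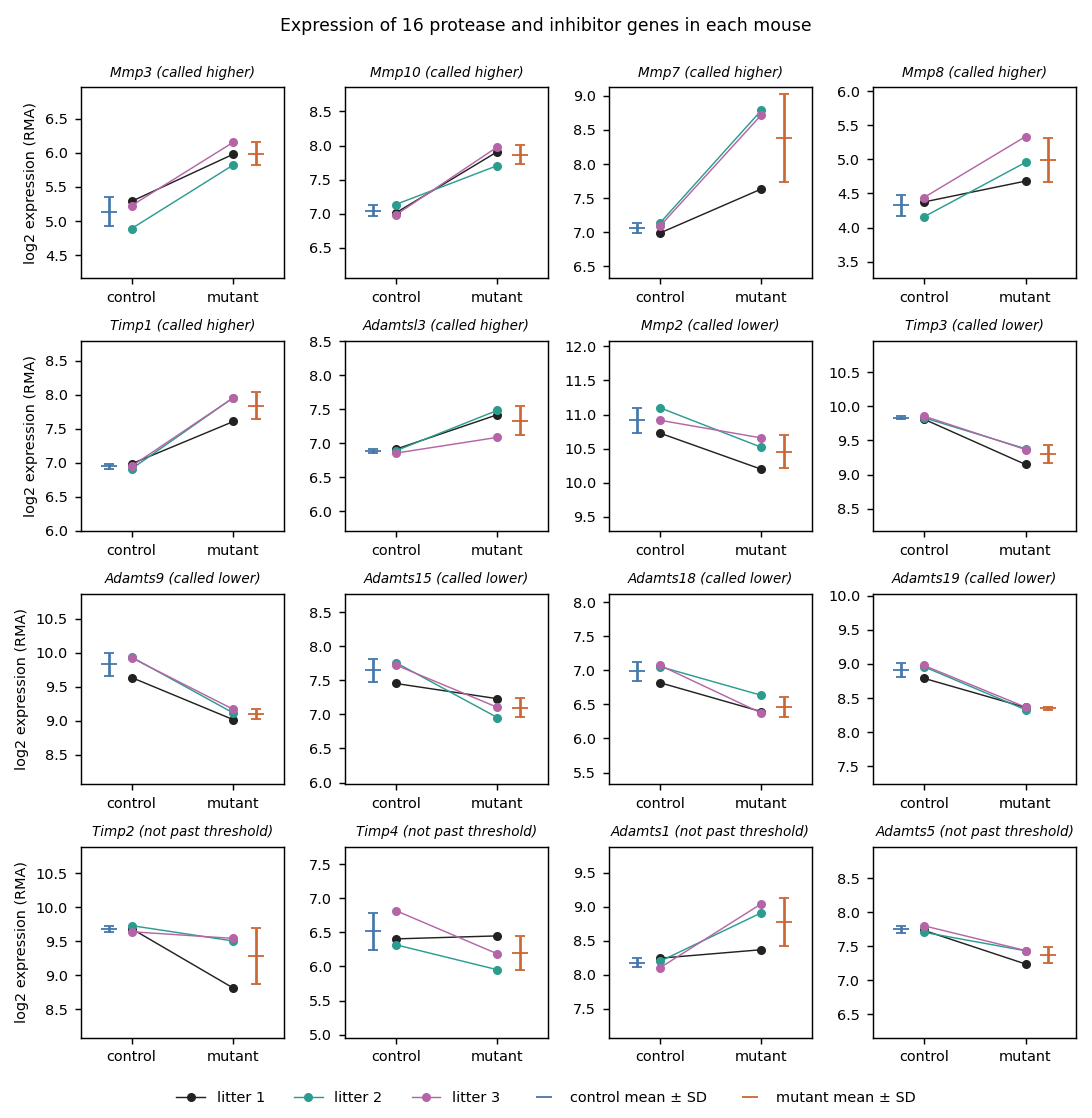
Log2 expression (y axis) of 16 genes in each mouse, with a line joining the littermates of each of the 3 litters and the mean ± SD of each group (n = 3) at the side. All panels span the same range of log2 units. Among the genes that passed, mutants lie above controls for Mmp3, Mmp10, Mmp7, Mmp8, Timp1 and Adamtsl3 and below them for Mmp2, Timp3 and 4 Adamts genes. Among those that did not pass, mutants lie above controls for Adamts1, below them for Timp2 and Adamts5, and overlap them for Timp4.

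Of the 18 Adamts genes 4 fell, 0 rose and 14 did not pass. The count of falls was 2 without litter 3 and 9, with 2 rises, with array weights. Of the 18 changes 15 were below 0, beside 47.5% of all genes, and 13 genes were lower in the mutant of each litter, beside 17.1% of all genes. All mutants were below all controls in 10 Adamts genes, beside 9.78% of all genes. Adamts9, a protease of versican and aggrecan, was 9.63, 9.93 and 9.92 in controls and 9.01, 9.11 and 9.17 in mutants. It was 1.66-fold lower (-0.73 ± 0.08, limma adjusted p = 0.00481), the largest fall of the 49 genes, and was of similar size in each litter (-0.62, -0.82 and -0.76). Adamts9 has 6 rows on the array, and the other 5 rows fell between 0.46 and 0.72, which are further probes on the same 6 arrays and not further samples.

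Adamts15, another proteoglycan protease, went from 7.45, 7.76 and 7.73 to 7.23, 6.95 and 7.10. It fell 1.47-fold (-0.55 ± 0.12, limma adjusted p = 0.0457), with the smallest difference in litter 1 (-0.22). The call was lost without litter 2 (adjusted p = 0.0977), without litter 3 (0.110), with quantile normalization (0.0590), with median centring (0.0556) and with all rows that have a gene name (0.0550). Adamts8, its neighbour on chromosome 9, read 7.69, 7.93 and 7.73 in controls and 7.24, 7.45 and 7.49 in mutants and did not pass (-0.39 ± 0.09, adjusted p = 0.0545). It was called lower with trend and robust priors (adjusted p = 0.0460), with array weights (0.0376) and without the dimmest 30% of genes (0.0383). Adamts5, the main aggrecan-cutting enzyme of mouse cartilage, was 7.73, 7.70 and 7.80 in controls and 7.24, 7.43 and 7.44 in mutants (-0.38 ± 0.09, adjusted p = 0.0558). Neither had overlapping groups. Adamts5 was called lower under the same 3 settings (adjusted p = 0.0481, 0.0347 and 0.0390), without the litter block (0.0487) and with litter as a random block (0.0370).

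Adamts1, which lies next to Adamts5 on chromosome 16, went the other way in 3 of 3 litters. It was 8.24, 8.20 and 8.10 in controls and 8.37, 8.91 and 9.04 in mutants, with no overlap. The difference was 0.12 in litter 1 and 0.72 and 0.94 in litters 2 and 3, and it did not pass (0.59 ± 0.15, adjusted p = 0.0744), although it was called higher without litter 1 (0.83, adjusted p = 0.0108) and with array weights (0.73, 0.00969). Adamts4 stood at -0.28 ± 0.08 with similar differences in all litters (-0.31, -0.27 and -0.25), and Adamts20, a relative of Adamts9, at 0.01 ± 0.08.

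Adamts18 and Adamts19, whose substrates are less well known, also fell. Adamts18 was 6.82, 7.06 and 7.08 in controls and 6.39, 6.63 and 6.37 in mutants. It was 1.43-fold lower (-0.52 ± 0.09, limma adjusted p = 0.0236, and 0.117 without litter 3). Adamts19 was 8.79, 8.96 and 8.98 in controls and 8.36, 8.33 and 8.37 in mutants. The mutants lay within 0.04 of each other, and the fall was 1.47-fold (-0.56 ± 0.09, limma adjusted p = 0.0140). The closest relative of each in sequence behaved differently in these values: Adamts16 stood at 0.32 ± 0.09, with all mutants above all controls, and Adamts17 at -0.10 ± 0.08. Neither passed, and the differences within these pairs were not tested.

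Adamts6, a protease of the matrix around elastic microfibrils, had the largest change below 0 among the Adamts genes that did not pass. It read 6.88, 7.25 and 7.09 in controls and 6.91, 6.45 and 6.65 in mutants. The groups overlapped through litter 1, and the change was -0.40 ± 0.14 (adjusted p = 0.230, 0.0378 without litter 1 and 0.0466 with array weights). Adamts10, its relative, stood at -0.31 ± 0.09, and Adamts7 and Adamts12, which cut the cartilage protein Comp, at -0.27 ± 0.08 and -0.27 ± 0.09. These 3 were lower in each litter without overlap and did not pass. Of the procollagen-trimming enzymes, Adamts14 stood at -0.29 ± 0.08 (adjusted p = 0.119) and Adamts3 at -0.08 ± 0.10. Adamts13, the von Willebrand factor protease, stood at -0.05 ± 0.08.

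**Figure D4:**
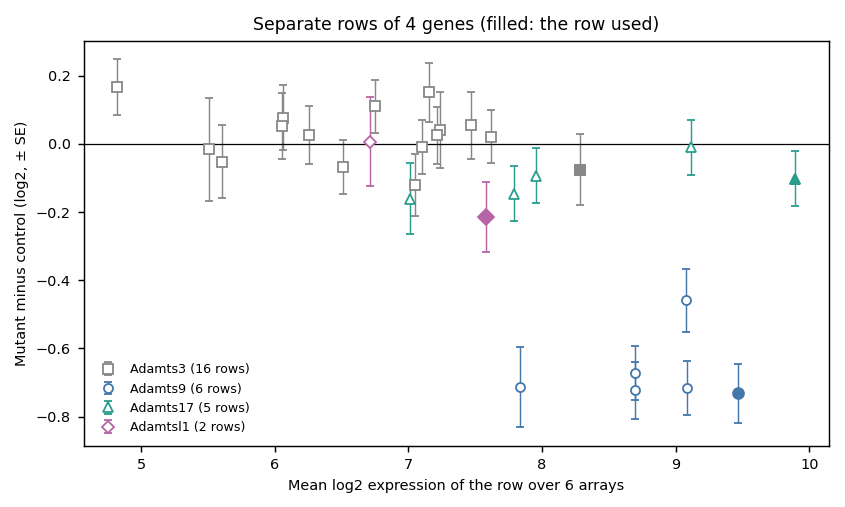
Change (y axis, log2 scale, ± SE of a fit of all rows) against mean expression (x axis, log2) for every row of the 4 genes with more than 1 row; filled points are the rows used. All 6 rows of Adamts9 lie below -0.4, while the 16 rows of Adamts3 lie on both sides of 0, from -0.12 to 0.17.

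The 4 genes with more than 1 row show how far the choice of row matters. The 16 rows of Adamts3 split into 10 above and 6 below 0, so no direction can be given for this gene. All 5 rows of Adamts17 were below 0, from -0.16 to -0.01. The pair of Adamtsl1 rows stood at -0.21 and 0.01.

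Of the Adamtsl genes, Adamtsl3, also called punctin-2, was 6.91, 6.89 and 6.86 in controls and 7.42, 7.48 and 7.09 in mutants. It was 1.36-fold higher (0.44 ± 0.10, limma adjusted p = 0.0483), the highest p of the 12 genes that passed. The call was lost without the litter block (adjusted p = 0.0631), without litter 1 (0.116), without litter 2 (0.154), with quantile normalization (0.0514), with the mean of all rows of each gene (0.05004) and with all rows that have a gene name (0.0570). Adamtsl5 and Adamtsl2, which binds fibrillin microfibrils, stood at 0.20 ± 0.09 and 0.12 ± 0.09. Adamtsl4, which also binds microfibrils, was at -0.20 ± 0.09. None of the 4 others passed.

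Genes around these enzymes were counted in the same fit. Of 32 measured genes that activate Mmps or control them at the cell surface, 2 rose, 6 fell and 24 did not pass. Risers were the plasminogen activator gene Plat (1.14 ± 0.16) and the urokinase receptor gene Plaur (0.80 ± 0.11), and the falls with the lowest p were Plau, urokinase (-1.10 ± 0.09), Spock3, a testican (-0.82 ± 0.08), and Cav1, caveolin (-0.69 ± 0.09). Of 18 other metalloproteinase genes 1 rose, Pappa2 (0.94 ± 0.10), which cleaves Igf-binding proteins, and 3 fell, led by Adamdec1 (-1.33 ± 0.14), a soluble Adam of gut stroma. Of 28 proteoglycan and glycoprotein substrates 0 rose and 3 fell, namely Vcan, versican (-0.56 ± 0.09), Fn1, fibronectin (-0.67 ± 0.13), and Nid1, nidogen (-0.50 ± 0.10). Of 16 fibrillar and basement membrane collagen genes, including procollagen enhancers, 0 rose and 4 fell, all 4 of them chains of type IV collagen.

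Many markers of muscle and vessels, and fewer of fibroblasts, were lower alongside the falling protease genes. Of 12 smooth muscle markers 8 fell and 0 rose, with a summed level of 15.53 to 15.61 in controls and 14.99 to 15.32 in mutants. The 8 include Ano1 (-1.31 ± 0.13), the largest fall of this list, which in the gut is a marker of interstitial cells of Cajal. Of 12 blood endothelium markers 7 fell and 0 rose (12.40 to 12.58 against 12.02 to 12.16). Of 13 fibroblast markers 3 fell, 0 rose and 10 did not pass (15.47 to 15.56 against 15.06 to 15.44). The median of the 6 protease genes that fell was -0.48, -0.61 and -0.62 in litters 1 to 3. Smooth muscle markers had medians of -0.77, -0.54 and -0.32, and blood endothelium markers of -0.38, -0.40 and -0.38. Fibroblast markers had medians of -0.33, -0.03 and -0.10, with changes of single genes from -1.09 to 0.14. The smallest median fall was in litter 1 for the protease genes, which were chosen by their call. It was in litter 3 for smooth muscle markers and in litter 2 for fibroblast markers. Blood endothelium markers had nearly the same median in each litter. These litter patterns were not tested against each other. The 6 genes that rose had medians of 0.63, 0.87 and 0.97, beside 0.59, 0.53 and 0.84 for neutrophil markers. The part of these cell types in the changes was not tested.

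**Figure D5:**
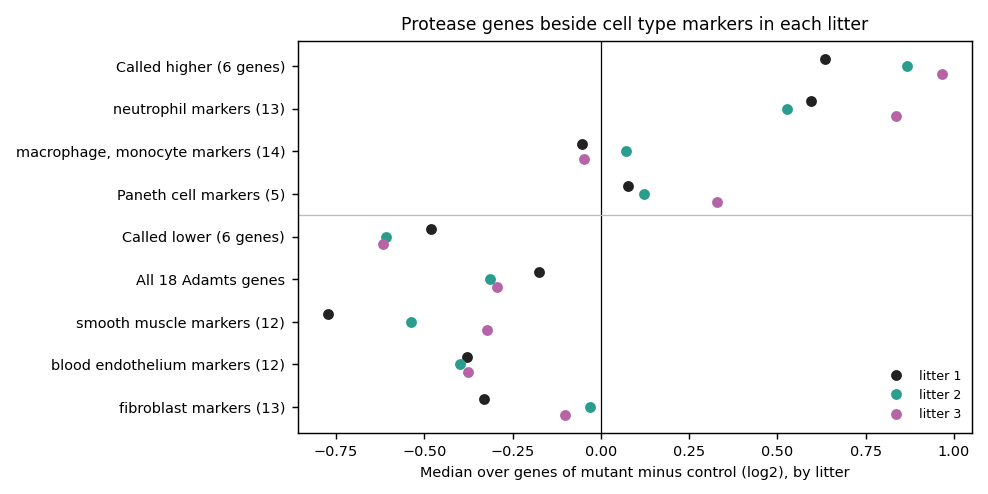
Median over genes of mutant minus control (x axis, log2 scale) in each of the 3 litters, for the protease genes called higher or lower, all 18 Adamts genes, and cell type markers (number of measured genes in brackets). The genes called higher lie at 0.63 to 0.97 in the 3 litters and those called lower at -0.62 to -0.48; these genes were chosen by their call, so their medians are a description.

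For the series as a whole, the array medians lay between 7.10 and 7.14, and Ihh stood at 8.50, 8.54 and 8.68 in controls and 8.37, 8.22 and 8.22 in mutants without passing (adjusted p = 0.139), a value that averages probes over the transcript and checks the deletion only in part. Ptch1, the receptor gene that hedgehog signals induce, was lower in each mutant (-1.26, -1.52 and -1.53 in litters 1 to 3). The epithelial genes Epcam and Vil1 and the colonocyte gene Car1 were measured at 11.71, 11.50 and 12.38 on average in controls, so markers of the labelled tissue were present.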

How the data were processed

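The authors deposited 1 table of log2 expression values, made with RMA per the submitters' processing notes (background correction, quantile normalization and a summary of probes); its version is not given in the sources used here, nor is the genome build. The table has 35557 rows for 6 arrays. Rows were named through the platform annotation of 2016: 21789 had 1 symbol, 1621 several and 12147 none here. The brightest row per symbol left 19938 genes. Mutant and control were compared with limma 3.58.1 in R 4.3.3 (lmFit, eBayes, two-sided, Benjamini-Hochberg over 19938 genes, calls at adjusted p under 0.05). Litter was a fixed block, because the series' design text calls the mice littermates. After subtraction of the group means, littermates correlated by only 0.0128, 0.00516 and 0.0613 over genes. All adjusted p values are from this fit unless a setting is named. It has 2 residual degrees of freedom, to which the shared prior adds 5.85. Array values carry no counts, and the number of arrays limits the precision.

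The genes and lists (roles, pathway genes, cell type markers) were chosen with earlier results of these data known. Values on all arrays are given for each gene that passed, for the 4 Timp genes and for the 4 largest changes that did not pass. Array values of other genes (Mmp12, Mmp14, Mmp28 and Adamts5) were chosen after they were seen. Of pathway and marker lists, the genes with the lowest p are named, and the other neutrophil granule genes were picked after their values were seen. A summed level is log2 of the sum of a list's linear values on an array. Alternatives were no litter block, a random litter block, trend and robust priors, each litter left out, removal of the dimmest 30% of genes, array weights, median centring, quantile normalization, averaging a gene over its rows, and all rows of the table. Rows with several symbols and promoter windows of the other 15 genes were not used here. Promoter sequences are RefSeq's, on GRCm38.p6.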

Additional observations from a re-analysis of the deposited data

How the results depend on the processing

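Counts of genes higher and lower were 6 and 6. They moved beyond 1.5 times with array weights (11 lower) and when all 35557 rows were fitted. There limma called 0 higher and 0 lower, with 24 of the 49 genes at an unadjusted p under 0.05. In the main fit that p was reached by 27 of the 49 and by 3008 of all 19938 genes. The share of all genes at that p was not counted in the fits of all rows. The 12147 unnamed rows vary more between litters (median variance of the litter differences 0.0503, against 0.0194 for the genes), and the prior fell from 5.85 to 3.01 degrees of freedom. Of 2 fits added after seeing the data, all rows with trend and robust also gave 0 and 0 (23 at an unadjusted p under 0.05), and all rows with a gene name gave 5 and 5, all 10 among the 12. The cause of the shift with array weights was not tested. Without a replicate block the counts were 4 and 6. With a litter left out they ranged from 5 to 6 higher and from 4 to 6 lower. The median was -0.17 over the 37 genes left without the dimmest 30%, which is a different set of genes. With median centring it was -0.022, beside 0.032 for all genes, since that step shifts every gene's change by the same amount. It was -0.0057 with the mean of all rows and -0.070 to -0.046 with a litter left out. The causes of these last shifts were not tested. Mmp3, Mmp10, Mmp7, Timp1, Timp3, Adamts9 and Adamts19 were called under every alternative that held them other than the fits of all 35557 rows; Mmp3 and Mmp8 are not in the fit without dim genes.

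Signs turned only in genes that did not pass. Mmp9 was 0.050 with array weights and 0.019 with median centring, and Adamts3 was 0.024 with the mean of all rows. With a litter left out, ranges crossed 0 for Mmp9 (-0.097 to 0.11), Mmp12 (-0.067 to 0.22), Mmp14 (-0.24 to 0.027), Mmp13 (-0.062 to 0.14), Mmp24 (-0.070 to 0.13), Mmp27 (-0.024 to 0.12), Adamts3 (-0.14 to 0.036) and Adamts20 (-0.046 to 0.051).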
